A study of Mus musculus with 7 samples.

Results

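The genes of the lysosomal proton pump and of the proteases that work in the acid it makes were measured by RNA-seq in the lactating mouse mammary gland. The set holds 38 genes out of the 37310 in the deposited count table. They were chosen by name. It contains 17 genes of the vacuolar H+-ATPase (V-ATPase), 10 cathepsins, 3 lysosomal membrane proteins, 6 genes of lumenal hydrolases and lysosomal proteins related to them, and the transcription factors *Tfeb* and *Tfe3*. All 38 genes were found in the table and all 38 had enough counts to be tested. Glands were taken on lactation day 1 from C57BL/6 mice, with 3 libraries labelled WT and 4 labelled *Tardbp* KO. According to the study's methods, both groups carry a WAP-Cre transgene, which is active in luminal epithelium from mid-pregnancy to lactation, and the KO mice in addition carry floxed *Tardbp* alleles. The gland also holds cells in which this Cre is not active, so the libraries mix deleted and intact cells. The age of the mice is not given in the sources used here.

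Lysosomes break down proteins, lipids and sugars taken up from outside or delivered by autophagy. The V-ATPase makes their lumen acid: its V1 sector on the cytosolic side hydrolyses ATP, and its V0 sector in the membrane carries the protons across. Cathepsins are proteases that mature and act in this acid lumen, LAMP1 and LAMP2 line the membrane, and TFEB and TFE3 are transcription factors that bind a short E-box motif in the promoters of many of these genes. In the mammary gland, lysosomal proteases are known for their part in the removal of epithelium when milk production ends. TDP-43, the product of *Tardbp*, binds UG-rich RNA.

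Library totals lay between 36007737 and 42811337 counts, and the 38 genes together took between 0.560% and 1.22% of them. Genes of 7 milk proteins took 26.3% to 34.0% of the counts in WT libraries and 12.7% to 21.8% in the KO-labelled libraries. Levels were therefore scaled by TMM (trimmed mean of M-values) and are given as CPM, the usual unit of counts relative to the scaled library total. *Tardbp* itself stood at 223, 178 and 159 CPM in WT libraries and at 214, 176, 154 and 208 CPM in the KO-labelled libraries, and counts per gene cannot show the loss of single exons. The genotypes used here are therefore those of the labels. By immunofluorescence, the study reports effective loss of TDP-43 in the mammary epithelium, in late pregnancy and on a later lactation day than here. The library codes end in a number that is read here as the sequencing lane, although the labels do not name it so, and 4 is the only such number with both genotypes (1 WT and 2 KO-labelled libraries). In a whole gland, fewer cells of a type and less RNA per cell cannot be told apart.

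None of the 38 genes passed the test between genotypes, which asked for a difference of more than 1 log2 unit together with an adjusted p under 0.01 (edgeR's quasi-likelihood test, Benjamini-Hochberg adjustment over 17175 genes). That test called 0% of all genes, 0 in number, while 3674 genes had an unadjusted p under 0.05. Neither did any of the 38 pass in edgeR's exact test, which called 426 genes in all (1.04% of genes higher and 1.44% lower in the KO-labelled libraries), nor in DESeq2, which called 572. Of the 38 genes, 21 were higher and 17 lower in the KO-labelled libraries, with a median log2 fold change of 0.09, and the median of all genes tested was 0.05. The fold change was smaller than 0.5 on the log2 scale for 32 of the 38, against 68.5% of all genes tested. This comparison was not matched for level. Each of the 38 had at least 60 counts per library, whereas genes with 5 counts in 4 libraries were tested. The 95% interval of the fold change stayed within 1 log2 unit on either side for 25 of the 38, so that for these a change of 2-fold or more lay outside the interval, and it reached past 1 for the other 13. The study describes the groups as 3 and 4 mice, and the test measures the spread between their libraries.

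An unadjusted p under 0.05 was reached by 2 genes that were higher in the KO-labelled libraries (*Ctss* and *Scarb2*) and by 2 that were lower (*Atp6v1h* and *Ctsc*). Over all genes tested, 10.7% were higher with such a p and 10.7% were lower. The KO-labelled libraries all lay above the WT libraries for 0 of the 38 genes, against 9.07% of all genes, and all lay below them for 2 of the 38 (*Atp6v0a2* and *Ctsc*), against 9.62% of all genes. These shares were thus at or under the background in every case.

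**Figure D1:**
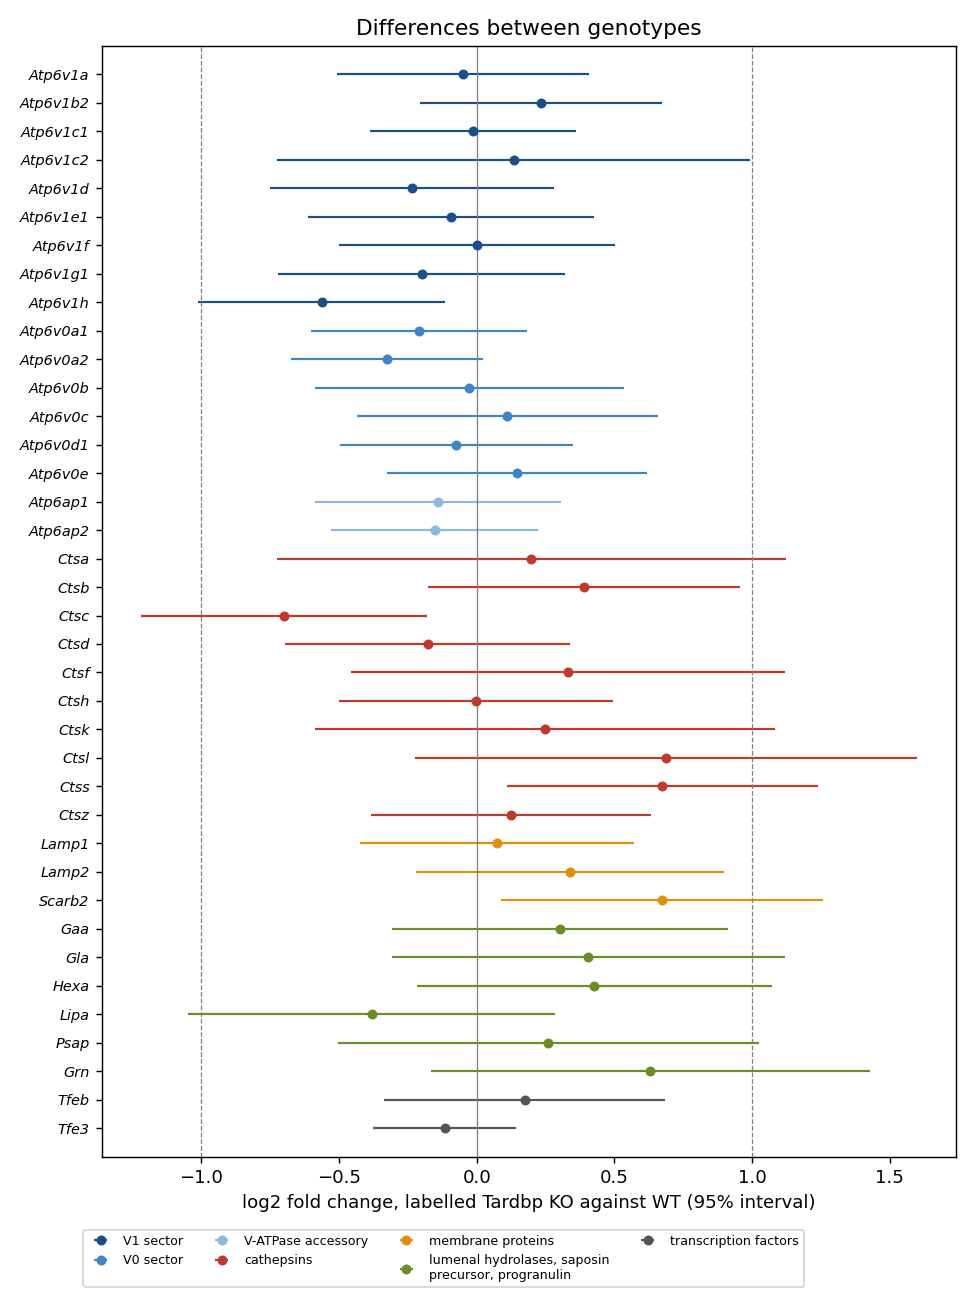
Log2 fold change between the KO-labelled and the WT libraries (horizontal axis) for each of the 38 genes (vertical axis), with the 95% interval from edgeR's quasi-likelihood fit as a bar. Dashed lines mark a log2 fold change of 1 in either direction. The intervals of the V-ATPase genes lie within these lines for 16 of 17 genes, and those of the cathepsins for 4 of 10.

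The promoters of several of these genes carry the palindromic E-box TCACGTGA, the core of the element that TFEB and TFE3 bind. It was searched in RefSeq's promoter windows (mouse assembly GRCm38.p6, from 250 bases before to 50 bases after the start), where 31 of the 38 genes had an entry. The letters read the same on both strands, and every TCACGTGA also holds the shorter E-box CACGTG. TCACGTGA was present for 6 of the 31 genes, against 1.12% of the 27025 genes in the table, and CACGTG for 11 of the 31, against 8.09%. Both the pump and the lumenal enzymes were among the carriers, with 3 of 12 V-ATPase genes and 3 of 19 others. The 8 sites are shown because they are the sequence feature that pump and protease genes share. They are printed 5′ to 3′ on the strand of the gene, with the E-box in capitals and 10 flanking bases on each side.
Atp6v1a, chr16:44139374-44139401, minus strand: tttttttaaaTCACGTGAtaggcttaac
Atp6v0d1, chr8:105566051-105566078, minus strand: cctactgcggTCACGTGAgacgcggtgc
Atp6v0e, chr17:26676388-26676415, plus strand: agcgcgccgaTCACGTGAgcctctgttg
Ctsa, chr2:164833750-164833777, plus strand: gagcaaactgTCACGTGAtgcagatgct
Ctsa, chr2:164833767-164833794, plus strand: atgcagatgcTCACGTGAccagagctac
Ctsd, chr7:142387909-142387936, minus strand: cgcccgcgtcTCACGTGAcccgttgagg
Gla, chrX:134601183-134601210, minus strand: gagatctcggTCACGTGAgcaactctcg
Gla, chrX:134601216-134601243, minus strand: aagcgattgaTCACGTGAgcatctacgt
The sites of *Atp6v0d1*, *Atp6v0e* and *Ctsa* lie within 13 bases of the start, and those of *Gla* begin 195 and 228 bases before it. Another 5 genes (*Atp6v0b*, *Ctsf*, *Ctsl*, *Gaa* and *Lamp1*) had only the shorter CACGTG, and *Lamp1* had 4 copies of it. Of the 6 genes with TCACGTGA, 3 were higher and 3 lower in the KO-labelled libraries, with a median log2 fold change of 0.05 and a range from -0.18 to 0.41. For the 25 genes with an entry and without the motif the median was 0.13 and the range ran from -0.70 to 0.69. The genes with the motif lay inside the range of those without it, which 6 genes beside 25 may do in any case. A link between the motif and the fold change was not tested.

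The factors themselves were measured at low levels. *Tfeb* stood at 22.0, 43.7 and 36.7 CPM in WT libraries and at 35.3, 33.9, 41.8 and 43.1 CPM in the KO-labelled libraries, a log2 fold change of 0.17 (adjusted p = 0.702, edgeR quasi-likelihood). The KO-labelled libraries lay inside the WT range. *Tfe3* stood at 51.9, 58.3 and 55.6 CPM in WT libraries and at 51.5, 50.5, 49.1 and 52.9 CPM in those labelled KO (log2 fold change -0.12, adjusted p = 0.606, edgeR quasi-likelihood). Only KO-labelled library 4 lay above the lowest WT library. Per kilobase of exon the factors were close to each other, with 6.02 ± 1.96 and 5.97 ± 0.351 CPM per kb in WT libraries for *Tfeb* and *Tfe3* (SD, n = 3).

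The V-ATPase genes differed by less than 1 log2 unit between the genotypes. Of the 17 genes, 5 were higher and 12 lower in the KO-labelled libraries, with a median log2 fold change of -0.07 and a range from -0.56 to 0.23. Mean levels in WT libraries ran from 9.41 CPM per kb for *Atp6v1c2* to 158 CPM per kb for *Atp6v1g1*. In the V1 sector, 3 of 9 genes were higher and 6 lower (median -0.05), in V0 2 of 6 were higher and 4 lower (median -0.05), and both accessory genes were lower (median -0.15). The sign of these small differences rested on the scaling: 12 of the 17 turned under at least 1 of 4 other scalings, and with library size as the only scaling the V-ATPase median was 0.29 while the median of all genes tested was itself shifted to 0.42.

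The gene of subunit H, *Atp6v1h*, which couples ATP hydrolysis in V1 to proton transport, differed most. It stood at 97.7, 70.5 and 75.2 CPM in WT libraries and at 42.9, 54.2, 50.9 and 71.7 CPM in the KO-labelled libraries. Only KO-labelled library 4 reached into the WT range. The log2 fold change was -0.56 (SE 0.198, 95% interval -1.01 to -0.12), with 0.155 as the adjusted p of edgeR's quasi-likelihood test and p = 0.0857 in a 2-sided exact permutation test, whose smallest possible p is 0.0286. When single libraries were left out, it lay between -0.74 and -0.41, and among the libraries of code number 4 it was -0.22.

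The stalk subunit D gene, *Atp6v1d*, stood at 97.1, 98.2 and 91.2 CPM in WT libraries and at 54.9, 84.1, 71.0 and 115 CPM in the KO-labelled libraries, a log2 fold change of -0.24 (SE 0.228, adjusted p = 0.599, edgeR quasi-likelihood). The WT libraries lay close together, and the others lay on both sides of them. *Atp6v1b2*, a B subunit of the catalytic hexamer, stood at 100, 129 and 97.0 CPM against 92.7, 134, 135 and 149 CPM, a log2 fold change of 0.23 (SE 0.194, adjusted p = 0.536, edgeR quasi-likelihood). Here 3 KO-labelled libraries lay above the WT range and 1 below. *Atp6v1g1*, a subunit of the peripheral stalk and the V1 gene of the highest level per kb, stood at 179, 183 and 177 CPM against 123, 128, 143 and 233 CPM (log2 fold change -0.20, adjusted p = 0.664, edgeR quasi-likelihood). The other 5 V1 genes, for the catalytic subunit A (*Atp6v1a*), the regulatory subunits C (*Atp6v1c1* and *Atp6v1c2*), the stalk subunit E (*Atp6v1e1*) and subunit F (*Atp6v1f*), lay between -0.09 and 0.13 on the log2 scale, and their groups overlapped.

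In the V0 sector the a subunits, which form the half-channels for protons and direct the pump to membranes, differed most. *Atp6v0a2* stood at 205, 173 and 197 CPM in WT libraries and at 139, 133, 167 and 171 CPM in the KO-labelled libraries. All of the latter lay below all WT libraries, by 171 against 173 CPM at the closest. The log2 fold change was -0.33 (SE 0.153, 95% interval -0.68 to 0.02), with an edgeR quasi-likelihood adjusted p of 0.260 and an exact permutation p of 0.0571. *Atp6v0a1* stood at 120, 104 and 95.6 CPM against 88.9, 89.2, 74.9 and 116 CPM, a log2 fold change of -0.21 (adjusted p = 0.535, edgeR quasi-likelihood). Library 4 was again the one that reached into the WT range. Per kilobase of exon, *Atp6v0a2* exceeded *Atp6v0a1* by 2.23-fold ± 0.264 in WT libraries (SD, n = 3) and by 2.09-fold ± 0.447 in the KO-labelled libraries (SD, n = 4), so the ratio of the paralogs differed by less than its spread. The same held for the C subunits, where *Atp6v1c1* exceeded *Atp6v1c2* by 2.65-fold ± 0.787 in WT libraries (SD, n = 3) and by 2.67-fold ± 1.59 in the others (SD, n = 4).

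*Atp6v0d1*, which joins V0 to the central stalk, had the highest V0 level per kb of annotated exon. This rank depends on the length used. The gene was the most even of the set in WT libraries, with 109, 107 and 107 CPM. In the KO-labelled libraries it stood at 74.3, 96.4, 111 and 128 CPM, on both sides of the WT level (log2 fold change -0.07). *Atp6v0e*, a small membrane subunit, stood at 76.8, 110 and 90.5 CPM against 78.8, 96.7, 97.4 and 136 CPM (log2 fold change 0.15). Of the 4 KO-labelled libraries, 3 lay inside the WT range and library 4 above it. *Atp6v0b* and *Atp6v0c*, of the proteolipid ring, had log2 fold changes of -0.03 and 0.11. The accessory genes *Atp6ap1* and *Atp6ap2*, which are needed for assembly of the pump, stood at 182, 216 and 207 CPM against 145, 176, 165 and 246 CPM, and at 99.6, 102 and 113 CPM against 77.8, 96.6, 85.7 and 118 CPM. For both, 3 KO-labelled libraries lay below the WT range and library 4 above it.

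Among the KO-labelled libraries, the V-ATPase genes varied largely in the same direction. Their spread was wider there than among WT libraries, although this difference in spread was not tested. The median SD of log2(CPM + 1) was 0.126 over WT libraries and 0.333 over the KO-labelled libraries. Library 4 was the highest of the 4 KO-labelled libraries for 17 of 17 V-ATPase genes, and library 1 the lowest for 13 of 17. Among WT libraries, library 1 was the lowest for 9 of 17 and library 2 the highest for 10 of 17. Summed over the 17 genes, the level was 1917, 2071 and 1968 CPM in WT libraries and 1477, 1770, 1731 and 2467 CPM in the KO-labelled libraries. The WT libraries lay between KO-labelled libraries 1 to 3 below and 4 above. The summed level of 5 luminal epithelium markers was also lowest in KO-labelled library 1, at 2423 CPM, and highest in library 4, at 3553 CPM, with WT libraries between 2500 and 3100 CPM. The low value of library 1 came from *Elf5*, at 434 CPM against 1017 to 1108 CPM in WT libraries, and the other 4 markers summed to 1989 CPM there, against 1391, 2084 and 1619 CPM in WT libraries and 2045, 2361 and 2689 CPM in KO-labelled libraries 2 to 4. The part of these differences in the V-ATPase levels was not tested. The genes share libraries, so that they are not independent of each other. Without KO-labelled library 4, 10 of the 38 genes (26.3%) lay below all WT libraries in place of 2, against 15.3% of all genes tested in the same libraries, and without KO-labelled library 1 the V-ATPase median was 0.08 in place of -0.07.

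**Figure D2:**
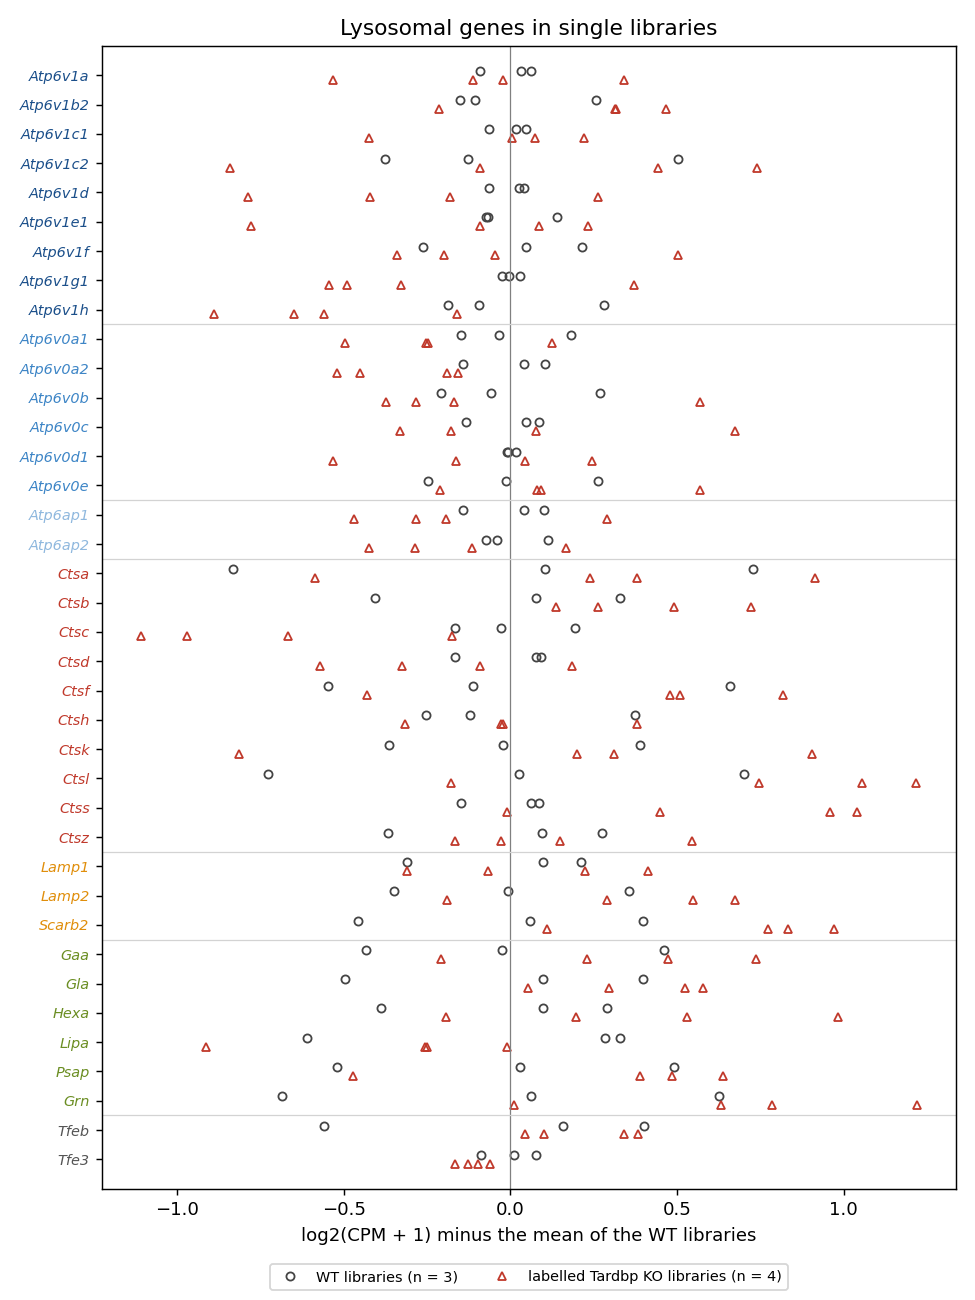
Level of each of the 38 genes (vertical axis) in each library, as log2(CPM + 1) minus the mean of the WT libraries (horizontal axis), with circles for the 3 WT and triangles for the 4 KO-labelled libraries. WT circles of the V-ATPase genes sit close to 0 with a median SD of 0.126, those of the cathepsins are wider apart with a median SD of 0.352, and the groups are apart only for *Atp6v0a2* and *Ctsc*.

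The cathepsins spanned a wide range of levels and had the largest differences of the set in both directions. Of the 10 genes, 7 were higher and 3 lower in the KO-labelled libraries, with a median log2 fold change of 0.22 and a range from -0.70 to 0.69. Levels per kilobase in WT libraries ran from 15.5 CPM per kb for *Ctsk* to 497 ± 48.7 CPM per kb for *Ctsd* (SD, n = 3), above every V-ATPase gene. *Ctsd*, the aspartic protease cathepsin D, stood at 1111, 1317 and 1329 CPM in WT libraries and at 840, 1172, 996 and 1418 CPM in the KO-labelled libraries, a log2 fold change of -0.18 (adjusted p = 0.696, edgeR quasi-likelihood). The KO-labelled libraries lay on both sides of the WT range.

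*Ctsc*, the dipeptidyl peptidase that activates granule proteases of leukocytes, was lower. It stood at 150, 116 and 128 CPM in WT libraries and at 66.1, 115, 81.8 and 60.0 CPM in the KO-labelled libraries, all below the WT range, although library 2 was below it by only 1 CPM. The log2 fold change was -0.70 (SE 0.229, 95% interval -1.22 to -0.18), with an edgeR quasi-likelihood adjusted p of 0.139 and an exact permutation p of 0.0571. Among the libraries of code number 4 it was -0.72.

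*Ctss*, the cysteine protease cathepsin S of antigen-presenting cells, was higher. It stood at 51.4, 60.6 and 59.6 CPM in WT libraries and at 78.2, 112, 118 and 56.6 CPM in the KO-labelled libraries, where libraries 1 to 3 lay above the WT range and library 4 inside it. The log2 fold change was 0.67 (SE 0.250, 95% interval 0.11 to 1.24), with an edgeR quasi-likelihood adjusted p of 0.17 and an exact permutation p of 0.114. The summed level of 9 macrophage markers was likewise above the WT range in KO-labelled libraries 1 to 3 and not in library 4, with 443, 405 and 576 CPM in WT libraries and 679, 913, 711 and 378 CPM in the KO-labelled libraries. All 9 markers were higher in the KO-labelled libraries, none of them with an unadjusted p under 0.05, and none was at 0 in any library. The summed level of 10 lymphocyte markers was between 24.3 and 37.3 CPM in WT libraries and stood at 339, 43.1, 457 and 103 CPM in the KO-labelled libraries. With only KO-labelled libraries 2 and 4 in the fit, the log2 fold change of *Ctss* was 0.56. These libraries had the lowest lymphocyte markers of the KO-labelled ones and were chosen after the data were seen. Library 4 lay inside the WT range for *Ctss*, and library 2 had the highest sum of macrophage markers. The part of macrophage and lymphocyte markers in the level of *Ctss* was not tested.

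*Ctsl*, the cysteine protease cathepsin L, stood at 269, 727 and 455 CPM in WT libraries and at 394, 750, 928 and 1040 CPM in the KO-labelled libraries. Its log2 fold change of 0.69 was close to that of *Ctss*, but WT libraries differed among themselves by 2.70-fold and the error was larger (SE 0.402, 95% interval -0.23 to 1.6, edgeR quasi-likelihood adjusted p = 0.366). *Ctsb*, cathepsin B, was listed at 859, 1431 and 1199 CPM against 1251, 1366, 1598 and 1877 CPM, a log2 fold change of 0.39 (adjusted p = 0.412, edgeR quasi-likelihood). The KO-labelled libraries of both genes overlapped WT. The other cathepsins were the serine carboxypeptidase gene *Ctsa* (log2 fold change 0.20), *Ctsk*, a collagen-degrading protease of osteoclasts (0.25), and the cysteine proteases *Ctsf* (0.33), *Ctsz* (0.13) and *Ctsh* (-0.00), each with overlapping groups. *Ctsa* varied most among WT libraries, from 112 to 331 CPM.

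The membrane proteins were higher in the KO-labelled libraries in 3 of 3 genes, with a median log2 fold change of 0.34. *Scarb2*, the gene of LIMP-2, which carries beta-glucocerebrosidase to lysosomes, stood at 55.3, 101 and 79.6 CPM in WT libraries and at 82.5, 131, 150 and 137 CPM in the KO-labelled libraries. Library 1 lay inside the WT range and the other 3 above it. The log2 fold change was 0.67 (SE 0.258, 95% interval 0.09 to 1.26), with an edgeR quasi-likelihood adjusted p of 0.183 and an exact permutation p of 0.0857. *Lamp2* stood at 155, 253 and 197 CPM against 173, 289, 242 and 316 CPM, a log2 fold change of 0.34. *Lamp1*, at 277, 398 and 367 CPM against 276, 401, 327 and 457 CPM, had a log2 fold change of 0.07. The groups overlapped for both LAMP genes. Per kilobase, *Lamp1* stood at 154 CPM per kb and *Lamp2* at 21.1 CPM per kb in WT libraries.

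Among the lumenal hydrolases and related proteins, 5 of 6 genes were higher, with a median log2 fold change of 0.35. *Psap*, the precursor of the saposins that help hydrolases reach lipids, had the highest level per kb of all 38 genes, at 687 CPM per kb in WT libraries. It stood at 1256, 2528 and 1838 CPM against 1297, 2800, 2356 and 2522 CPM (log2 fold change 0.26), so that WT libraries alone differed by 2.01-fold. *Grn*, the gene of the secreted and lysosomal protein progranulin, stood at 132, 329 and 222 CPM in WT libraries and at 214, 368, 331 and 497 CPM in the KO-labelled libraries. Of the latter, 3 lay above the WT range, and the log2 fold change was 0.63 (SE 0.352, 95% interval -0.17 to 1.43, edgeR quasi-likelihood adjusted p = 0.343). *Hexa*, a subunit of beta-hexosaminidase, stood at 26.8, 37.9 and 43.4 CPM against 40.7, 70.8, 51.5 and 30.8 CPM (log2 fold change 0.43). *Gla*, alpha-galactosidase, was the lowest of the set, at 2.26, 5.06 and 3.92 CPM against 3.77, 5.61, 4.65 and 5.87 CPM (log2 fold change 0.41). The groups overlapped for both enzymes. The acid glucosidase gene *Gaa* had a log2 fold change of 0.30 and the acid lipase gene *Lipa* one of -0.38.

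**Figure D3:**
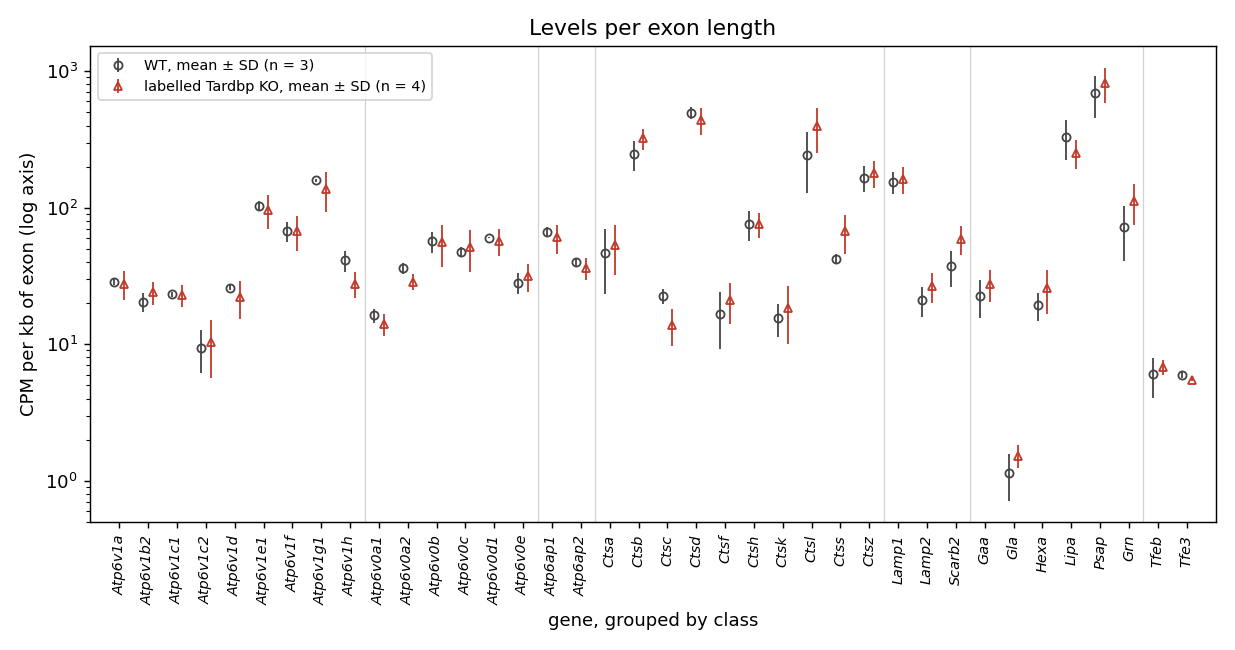
Mean level per kilobase of exon (CPM per kb, log axis) of each gene in WT and in KO-labelled libraries, with bars for the SD over 3 and 4 libraries. *Psap* and *Ctsd* are the highest at 687 and 497 CPM per kb in WT libraries, *Gla* the lowest at 1.15 CPM per kb, and the V-ATPase genes lie between 9.41 and 158 CPM per kb.

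The contrast between the pump and the other lysosomal proteins was then made within each library, where a scaling factor common to all genes cancels. Each gene was taken relative to its WT mean, and the median over the V-ATPase genes was set against the median over the cathepsins. In WT libraries the V-ATPase medians were -0.07, 0.05 and -0.01 and the cathepsin medians -0.31, 0.30 and 0.07 on the log2 scale. In the KO-labelled libraries the V-ATPase medians were -0.43, -0.16, -0.20 and 0.29 and the cathepsin medians -0.25, 0.38, 0.22 and 0.35. The V-ATPase median was thus below the cathepsin median in 4 of 4 KO-labelled libraries and in 2 of 3 WT libraries.

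The V-ATPase minus cathepsin difference was 0.24, -0.26 and -0.08 in WT libraries and -0.18, -0.54, -0.42 and -0.06 in the KO-labelled libraries, and the groups overlapped. Against the membrane proteins the difference was 0.27, -0.31 and -0.07 in WT libraries and -0.24, -0.71, -0.49 and -0.38 in the others, where KO-labelled library 1 lay above WT library 2. In the fit over all libraries the V-ATPase median of -0.07 and the cathepsin median of 0.22 differed by -0.30, and when single libraries were left out this difference lay between -0.45 and -0.15. Among the libraries of code number 4 it was 0.09, of the opposite sign, with 1 WT library behind it.

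The other lysosomal classes also varied more than the pump without any difference in genotype. The median SD of log2(CPM + 1) over WT libraries was 0.352 for the cathepsins, 0.353 for the membrane proteins and 0.481 for the hydrolases and related proteins, against 0.126 for the V-ATPase genes. WT library 1 was the lowest WT library for 19 of the 21 genes outside the V-ATPase, and WT library 2 the highest for 17 of 21. Summed over these 21 genes, the level was 5659, 9743 and 8017 CPM in WT libraries and 6042, 9664, 8949 and 10505 CPM in the KO-labelled libraries. WT library 1 was also the library with the largest share of milk protein counts, at 34.0%, and its part in the low levels was not tested.

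**Figure D4:**
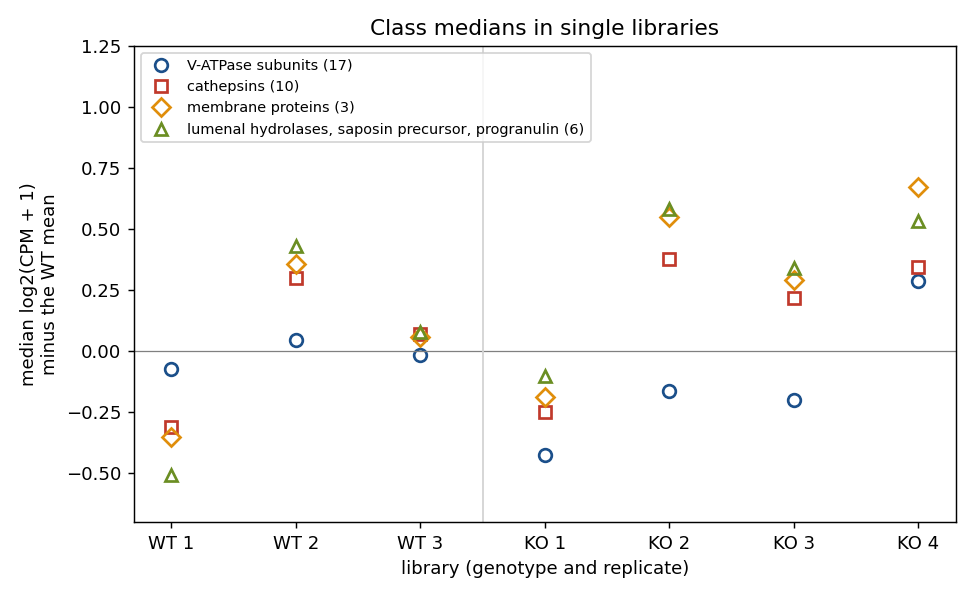
Median over the genes of a class (vertical axis, log2(CPM + 1) minus the WT mean) in each of the 7 libraries (horizontal axis). Drawn are the V-ATPase genes, the cathepsins, the membrane proteins and the lumenal hydrolases with related proteins, without *Tfeb* and *Tfe3*. The V-ATPase medians stay within -0.07 and 0.05 in WT libraries and spread from -0.43 to 0.29 in the KO-labelled libraries, and the medians of the other classes spread over both genotypes.

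Since TDP-43 binds UG-rich RNA, runs of at least 3 UG were counted in the longest GENCODE vM1 transcript of each gene (assembly NCBIM37). Such a run was present in 24 of the 38 genes, or 63.2%, against 71.5% of the 15112 tested genes with a transcript, and the median number of UG in runs was 3 in both. The median transcript length was 2222 bases for the 38 genes and 2909 bases for the 15112, and the shares were not adjusted for length. A run of at least 6 UG was present in 2 of the 38, or 5.26%, against 6.33%. Both lay in the 3′ UTR, in the last exon. They are shown as the longest UG runs among the 38 genes, 5′ to 3′ on the strand of the gene with the UG written as TG in capitals.
Atp6v1d, first 30 bases of a run of 25 UG, chr12:79943177-79943206, minus strand: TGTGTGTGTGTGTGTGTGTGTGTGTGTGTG
Grn, a run of 6 UG with its flanks, chr11:102298061-102298084, plus strand: cttgctTGTGTGTGTGTGcgcgtg
*Atp6v1d* had 34 UG in runs, more than 97.9% of the tested genes, and a log2 fold change of -0.24, while *Grn* had one of 0.63. After *Atp6v1d*, the genes with the most UG in runs were *Psap* with 16, *Atp6v0e* with 15 and *Ctsl* with 14. Their log2 fold changes were 0.26, 0.15 and 0.69. *Grn*, with the second longest single run, had 9 UG in runs. None of these genes passed the test, and a run in a transcript is a description and not a binding site.

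Genes of the same pathway outside the 38 were read from 6 lists. Of 5 other V-ATPase genes tested, 4 were higher and 1 lower, with a median log2 fold change of 0.31. The lower one, *Tcirg1*, had the highest mean level of the 5, at 185 CPM in WT and 133 CPM in KO-labelled libraries (log2 fold change -0.48). Summed over the 5 genes, the mean level was 275 ± 133 CPM in WT libraries (SD, n = 3) and 234 ± 84.6 CPM in the KO-labelled libraries (SD, n = 4). *Atp6v1g2*, the neuronal form of subunit G, stood at 2.78, 4.29 and 3.36 CPM against 5.31, 8.44, 6.08 and 7.15 CPM, above all WT libraries (log2 fold change 0.95, adjusted p = 0.0983, edgeR quasi-likelihood), and *Atp6v0d2* had a log2 fold change of 1.13 at no more than 1.06 CPM. Of 9 other proteases and cystatins 8 were higher (median 0.30), with *Ctse* at 1.33 and *Ctsw* at 0.69 on the log2 scale. *Ctse* stood at no more than 2.64 CPM in any library, and its groups overlapped. *Ctsw*, with overlapping groups too, stood at 6.99, 4.47 and 4.79 CPM in WT libraries and 11.4, 4.51, 13.5 and 5.47 CPM in the KO-labelled libraries. Of 14 other membrane and transport proteins 11 were higher (median 0.22). Of these, *Laptm5*, a lysosomal protein of blood cells, stood at 29.4, 37.1 and 36.9 CPM against 118, 81.7, 145 and 41.0 CPM (log2 fold change 1.49, adjusted p = 0.0899, edgeR quasi-likelihood). *Npc1*, the cholesterol transporter, stood at 30.5, 51.2 and 40.0 CPM against 52.5, 71.8, 73.9 and 72.7 CPM (log2 fold change 0.74). *Ctsw* and *Laptm5* were highest in KO-labelled libraries 3 and 1, as were the lymphocyte markers with sums of 457 and 339 CPM. The sum of the macrophage markers was highest in library 2, and the part of these cells in both genes was not tested.

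The 24 other hydrolases were split, 14 higher and 10 lower (median 0.05). *Glb1*, acid beta-galactosidase, was the lowest of them by fold change, with 45.3, 62.0 and 52.7 CPM in WT libraries and 17.3, 29.5, 36.0 and 19.6 CPM in the KO-labelled libraries, all below the WT range (log2 fold change -1.06, adjusted p = 0.0859, edgeR quasi-likelihood). The annotation holds a second gene of this name whose log2 fold change was -0.08. *Manba*, beta-mannosidase, had a log2 fold change of 0.96 (adjusted p = 0.126, edgeR quasi-likelihood). Of 6 sorting genes 1 was higher and 5 lower (median -0.20). The one that was higher was *Gnptab*, which makes the mannose 6-phosphate tag of lysosomal enzymes, with 66.1, 68.0 and 67.1 CPM against 96.1, 99.0, 88.1 and 107 CPM, above all WT libraries (log2 fold change 0.54, adjusted p = 0.0831, edgeR quasi-likelihood). *Gnptg*, of the same enzyme, had a log2 fold change of -0.41.

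Of 11 genes listed for the docking of mTORC1 at the lysosome 4 were higher and 7 lower (median -0.26). One of the 7 is *Mitf* (log2 fold change -0.27), a transcription factor related to TFEB and no docking protein. These 11 genes summed to 614, 616 and 609 CPM in WT libraries and 444, 575, 536 and 721 CPM in the KO-labelled libraries. The 6 sorting genes summed to 624, 645 and 678 CPM against 475, 601, 619 and 666 CPM. In both lists KO-labelled library 1 was the lowest of the 4 and library 4 the highest, as for the V-ATPase sum. *Rragd*, a Rag GTPase, stood at 2.11, 8.04 and 3.51 CPM against 12.4, 11.1, 14.0 and 24.1 CPM, above all WT libraries (log2 fold change 1.75, adjusted p = 0.0953, edgeR quasi-likelihood), and *Lamtor2*, a Ragulator subunit, had one of -0.67. In edgeR's exact test with the same limits, 2 of the 69 genes tested of these 6 lists were called, or 2.9%, against 2.48% of all genes, with *Laptm5* higher and *Glb1* lower. In the quasi-likelihood test 0 were called.

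Some values carry a limit from the way reads were counted. Reads that map to several places were not counted, and near-identical copies elsewhere in the genome, at 95% identity or more, covered 93.7% of the *Atp6v1f*, 88.7% of the *Atp6v1g1* and 94.6% of the *Atp6v0c* transcript, and between 8.36% and 18.9% of those of *Atp6ap2*, *Lamp1* and *Psap*. Reads shared by several genes were left out too, and exons of other genes covered 17.4% of the exon bases of *Ctsa*, 16.2% of *Ctsb* and 11.8% of *Atp6v0b*. The levels of these genes are therefore uncertain. Levels per kb were divided by all annotated exon bases of a gene, which can exceed its longest transcript. These lengths were 3384 and 1183 bases for *Atp6v0c*, 2051 and 1000 for *Atp6v0b*, and 1793 and 1629 for *Atp6v0d1*. For *Atp6v0a1* they were 6538 and 4008 bases, and for *Lamp2* 9552 and 3604. Ranks and ratios of genes per kb therefore depend on the length used.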

How the data were processed

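Total RNA of mammary glands was sequenced as paired-end reads after an Illumina TruSeq preparation. Per the file header, the authors counted reads on exons with featureCounts 1.4.6-p5, and the submitters' processing notes name STAR 2.5.2a. The deposited values are raw counts for 7 libraries, with the exon length of each gene, and the header sets no option for strand, pairs or multimapping reads, so that mates were counted separately and multimapping reads not at all. Another library named in the header was not analysed here. After ribosomal (580) and mitochondrial (37) genes had been left out, the 17175 genes that reached 5 counts in 4 or more of the 7 libraries were tested with edgeR 4.0.16 in R 4.3.3, using TMM and the quasi-likelihood test. Which edgeR test the authors used is not stated. Library totals of 36007737 to 42811337 gave every one of the 38 genes at least 60 counts per library. Intervals are those of this fit. Exact permutation tests used log2(CPM + 1) with a smallest possible p of 0.0286. *Tfeb* and *Tfe3* were matched by their older symbols.

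The 38 genes and all lists were chosen with earlier results of these data known. Values per library are given, in each class, for the 3 largest absolute log2 fold changes and the highest level per kb, and for *Tfeb* and *Tfe3*, and the 2 largest fold changes are named in each further list. *Ctsb*, *Mitf*, *Elf5*, *Tcirg1* and the second *Glb1* were added after their values were seen. Alternatives were other scalings, filters, tests and limits, each library left out, the libraries of code number 4 only, a replicate block and, chosen after seeing the data, subsets of libraries. DESeq2 1.42.0 was one alternative. Near-identical copies were sought with minimap2 2.31. Tables and figures used Python 3.11.15, pandas 2.3.3 and matplotlib 3.10.9.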

Additional observations from a re-analysis of the deposited data

How the results depend on the processing

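None of the 38 genes was called under any alternative, and the count of all genes called, 0 in the quasi-likelihood test, was 426 with edgeR's exact test, 567 with that test and no limit on the fold change, 572 with DESeq2, 1 without a filter on low counts and 1 at an adjusted p under 0.05 with no fold limit. The number of the 38 genes below all WT libraries (2) was 0 with upper-quartile scaling, library size only and the 10 most abundant genes left out of the library size (9.1%, 2.54% and 6.65% of all genes), and 1 with at least 10 counts required in every library. Among the libraries of code number 4 (1 WT and 2 KO-labelled, read as a lane) it was 8, or 21.1%, against 32.4% of all genes. The number above all WT libraries (0) was 3 with library size only (7.89% against 25.8% of all genes), 7 for code number 4 (18.4% against 32.2%) and 8 with KO-labelled libraries 2 and 4 alone (21.1% against 16%). With single libraries left out these numbers ran from 2 to 10 below and from 0 to 4 above. The V-ATPase median (-0.07) was 0.29 with library size only, 0.0064 with the 10 most abundant genes left out and 0.12 with KO-labelled libraries 2 and 4, and ran from -0.24 to 0.077 with single libraries left out. The cathepsin median (0.22) was 0.58 with library size only and -0.12 for code number 4, where the V-ATPase minus cathepsin difference was 0.087, and ran from 0.02 to 0.42 with single libraries left out. The median of all genes tested (0.05) was itself 0.42 with library size only and 0.14 with the 10 most abundant genes left out. There the V-ATPase minus cathepsin difference was -0.29 and -0.30. For KO-labelled libraries 2 and 4 the median of all genes was 0.04, and for code number 4 it was -0.002. The cause of these shifts was not tested.

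Correlations between same-numbered deviations were 0.44, 0.07 and -0.08, and those between differently numbered ones ran from -0.47 to 0.33. So few values cannot show whether the replicate numbers pair the libraries. With the replicate block over replicates 1 to 3, 0 genes were called, as without the block, and the lowest adjusted p of any of the 38 genes under any alternative, 0.0473 for *Ctss* in edgeR's quasi-likelihood test, came from the replicate block. Without the block, replicates 1 to 3 had 10 of the 38 genes below and 1 above all WT libraries, or 26.3% and 2.63%, against 15.3% and 13.6% of all genes. With 3 and 4 libraries, a 2-fold difference lay inside the 95% interval of 13 of the 38 genes.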
